A study of Mus musculus with 16 samples.

Results

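The let-7 and miR-98 family is a set of microRNAs whose guide arms, the strands that are loaded into Argonaute proteins, are nearly the same in sequence. Its 10 guide arms were taken by name from a table of 1915 mature mouse microRNAs, and all 10 had counts in each of 16 libraries. The libraries hold small RNA from extracellular vesicles (EVs) of bone marrow plasma. All mice were C57BL/6N, were 6 months old and carried the CAGS-Snorkel reporter, and their EVs were pulled from the plasma by an anti-HA magnetic bead column. A cross to Ocn-Cre gave 6 mice (3 male, 3 female), in which the osteocalcin promoter switches the reporter on in mature osteoblasts and osteocytes. A cross to Prx1-Cre, active in limb bud mesenchyme and the cells that descend from it, gave 10 mice (5 male, 5 female). Each library is 1 mouse, sex is not given per library, and these groups are called Ocn and Prx1. Mice without Cre and plasma that was not put through the column were not analysed here, so the values have no background to be set against.

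A let-7 guide pairs with messenger RNAs mainly through its seed, bases 2 to 8 from the 5′ end, and lowers their translation and stability. The family is scarce in early embryonic and stem cells, where LIN28 proteins block its maturation, and rises as cells differentiate. Known targets include the mRNAs of Hmga2, of Ras proteins and of LIN28 itself.

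The mature sequences below (RefSeq, GRCm38.p6) are shown because members differ by so few bases that their counts rest on single positions. Each is written 5′ to 3′ with the seed in capitals, and the prefix mmu is left out of names elsewhere.

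mmu-let-7a-5p: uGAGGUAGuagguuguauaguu
mmu-let-7c-5p: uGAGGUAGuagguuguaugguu
mmu-let-7b-5p: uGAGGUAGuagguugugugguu
mmu-let-7e-5p: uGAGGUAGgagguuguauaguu
mmu-let-7f-5p: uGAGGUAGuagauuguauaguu
mmu-let-7d-5p: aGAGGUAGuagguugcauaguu
mmu-let-7g-5p: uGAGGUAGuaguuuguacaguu
mmu-let-7i-5p: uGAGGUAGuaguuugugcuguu
mmu-miR-98-5p: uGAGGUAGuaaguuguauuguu
mmu-let-7j: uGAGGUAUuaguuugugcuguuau

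The first 9 of these share the seed GAGGUAG. The seed of let-7j is GAGGUAU, through the substitution G8U relative to let-7i-5p, and let-7j is 24 bases long where the others have 22. Positions are counted from the 5′ end, with the base of the first-named member first. Relative to let-7a-5p, let-7c-5p carries A19G, let-7e-5p U9G and let-7f-5p G12A, each as the only substitution, while let-7b-5p carries A17G and A19G. let-7d-5p is the only member that begins with A (U1A, with U16C). let-7g-5p (G12U, U18C) and miR-98-5p (G11A, A19U) are 2 substitutions from let-7a-5p, and let-7i-5p (G12U, A17G, U18C, A19U) is 4. A read with 1 wrong base can thus pass from one member to another, and how mismatches were handled in counting is not given in the sources used here.

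These guides come from 13 hairpins, whose positions were the same in RefSeq (GRCm38.p6) and in the GENCODE M21 annotation. Mirlet7a-1 (chr13:48538179-48538272), Mirlet7f-1 (chr13:48537829-48537917) and Mirlet7d (chr13:48536012-48536114) lie on the minus strand within exons of the noncoding gene 6720427I07Rik. Mirlet7c-2 (chr15:85706603-85706697) and Mirlet7b (chr15:85707319-85707403) lie 621 bases apart on the plus strand in exons of Lncppara. Mirlet7f-2 (chrX:151912346-151912428) and Mir98 (chrX:151913214-151913321) lie 785 bases apart in an intron of Huwe1, which encodes a ubiquitin ligase. The intronic Mirlet7c-1 (chr16:77599657-77599750) is in Mir99ahg next to Mir99a. Mirlet7e (chr17:17830352-17830444) is in an intron of Spaca6, 367 bases from Mir125a, and Mirlet7a-2 (chr9:41536716-41536811) is in an intron of 3110039I08Rik, 5211 bases from Mir100. Mirlet7g (chr9:106178840-106178927) is in an intron of Wdr82. Mirlet7i (chr10:122985640-122985724, minus strand) overlaps an exon of D630033A02Rik, and no annotated gene overlaps Mir7j (chr3:140028249-140028370), the hairpin of let-7j. let-7a-5p, let-7c-5p and let-7f-5p can each arise from 2 hairpins, and their counts cannot be assigned to either.

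The 10 guides together made up 41.6% of all microRNA counts on average. In Ocn libraries 1 to 6 the family share was 42.4%, 39.8%, 30.6%, 46.8%, 40.8% and 45.1%. In Prx1 it ran from 37.9% through a median of 41.8% to 47.3%. The Ocn mean was 40.9% ± 5.7 (SD, n = 6) and the Prx1 mean 42.0% ± 2.8 (SD, n = 10), and their difference of -1.06 percentage points was smaller than either SD. Ocn 3 was the lowest of all 16 libraries, and without it the Ocn mean was 43.0% ± 2.9 (SD, n = 5). Shares are parts of a fixed total, so a higher share of the family is a lower share of everything else.

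**Figure D1:**
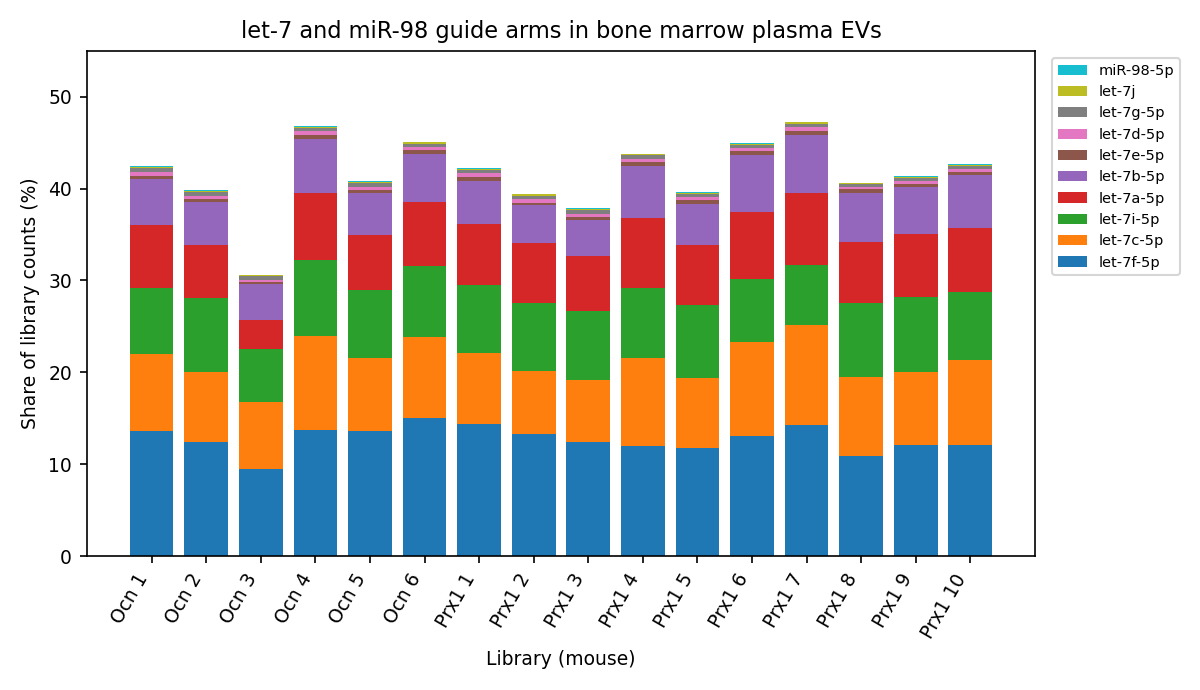
Stacked bars give each member's share of all microRNA counts (percent, vertical axis) in each of the 6 Ocn and 10 Prx1 libraries. The 5 lowest blocks (let-7f-5p, let-7c-5p, let-7i-5p, let-7a-5p and let-7b-5p) make up nearly the whole bar in every library, and Ocn 3 has the shortest bar, at 30.6%.

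The family split into 5 very abundant and 5 less abundant guides. By mean CPM, the count divided by the library total and multiplied by 1e+06, let-7f-5p, let-7c-5p, let-7i-5p, let-7a-5p and let-7b-5p held ranks 2 to 6 among all entries, behind miR-16-5p only, with 127550, 84893, 74569, 65492 and 50357 CPM. let-7e-5p (3882 CPM, rank 37), let-7d-5p (3582 CPM, rank 40), let-7g-5p (3392 CPM, rank 41), let-7j (1410 CPM, rank 56) and miR-98-5p (562 CPM, rank 80) were far lower. The top 5 held between 96.6% and 97.2% of the family in every library. Adaptor ligation differs with sequence, so the order of members within a library may not be their order in the vesicles. How reads that match 2 hairpins were counted is also not given.

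Not all neighbours in this order were separated in every library. let-7f-5p exceeded let-7c-5p in 16 of 16 libraries, let-7c-5p exceeded let-7i-5p in 11, let-7i-5p exceeded let-7a-5p in 14, and let-7a-5p exceeded let-7b-5p in 15, all but Ocn 3. The step from let-7b-5p to let-7e-5p was the widest, with a mean log2 ratio of 3.71 ± 0.15 (SD, n = 16). let-7e-5p, let-7d-5p and let-7g-5p were close: let-7e-5p exceeded let-7d-5p in 10 libraries and let-7d-5p exceeded let-7g-5p in 11, with mean log2 ratios of 0.11 ± 0.34 and 0.07 ± 0.24 (SD, n = 16), below their spread. let-7j stood below let-7g-5p and above miR-98-5p in all 16.

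let-7f-5p ran from 94398 to 150676 CPM in Ocn (median 135784) and from 109117 to 143981 CPM in Prx1 (median 122839). let-7c-5p ran from 72741 to 102973 CPM in Ocn (median 81827) and from 67541 to 109116 CPM in Prx1 (median 82635). let-7i-5p, which has 1 hairpin, ran from 58188 to 82984 CPM in Ocn (median 75403) and from 65445 to 82506 CPM in Prx1 (median 74254). For these 3 guides the ranges of Ocn and Prx1 overlap over most of their width, and the lowest Ocn library is Ocn 3 each time. let-7a-5p had 67799, 57931, 32050, 72761, 59585 and 70420 CPM in Ocn 1 to 6, and ran from 60226 to 77701 CPM in Prx1 (median 67517). let-7b-5p ran from 38697 to 58324 CPM in Ocn (median 48510) and from 39163 to 63386 CPM in Prx1 (median 51721). For let-7a-5p, 3 Ocn libraries lay below every Prx1 library, and Ocn 3 lay far below the rest.

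let-7e-5p ran from 2365 to 4863 CPM in Ocn (median 3972) and from 2742 to 4564 CPM in Prx1 (median 4151). let-7d-5p ran from 2379 to 4082 CPM in Ocn (median 3524) and from 2817 to 4377 CPM in Prx1 (median 3528). let-7g-5p ran from 3399 to 3667 CPM in Ocn (median 3548) and from 2592 to 3738 CPM in Prx1 (median 3412). The let-7g-5p values of Ocn lie close together, and Ocn 3, at 3587 CPM, is inside them. let-7j ran from 1364 to 1590 CPM in Ocn (median 1440) and from 1043 to 1620 CPM in Prx1 (median 1378). miR-98-5p ran from 338 to 715 CPM in Ocn (median 568.1) and from 446 to 722 CPM in Prx1 (median 571). The groups overlapped for all 10 members.

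**Figure D2:**
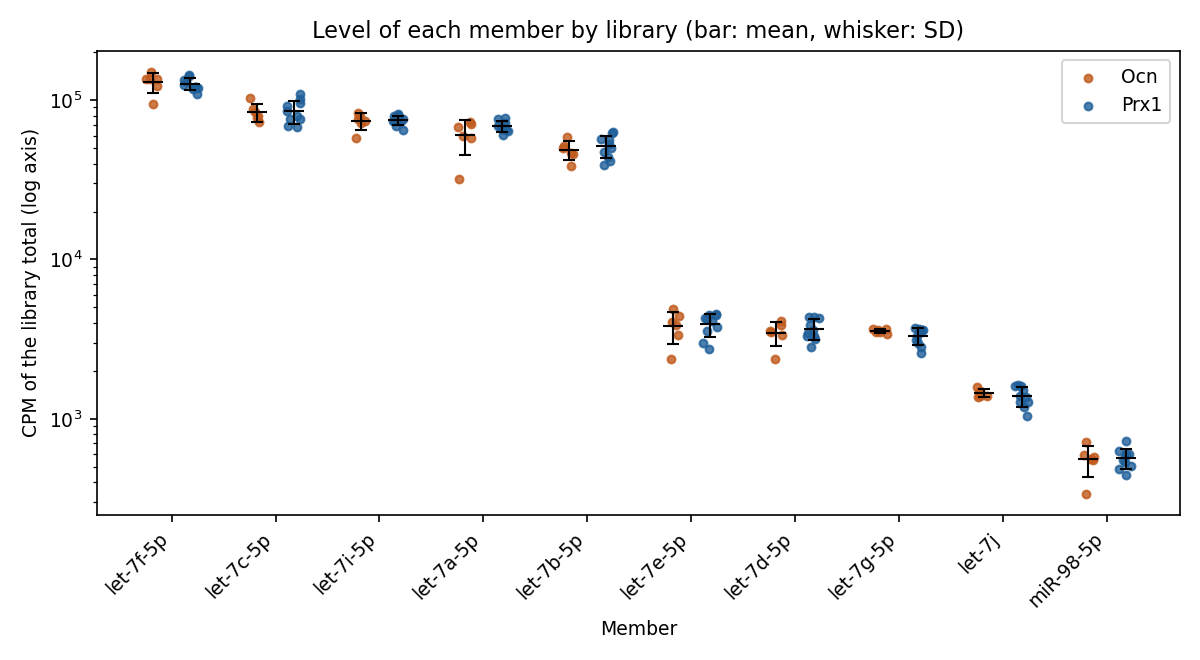
Points give the CPM of each member in each library on a log axis, with orange for the 6 Ocn and blue for the 10 Prx1 libraries. Black bars and whiskers give the group mean and SD. The members fall into an upper band of 5 and a lower band of 5, the groups overlap for each, and 1 low Ocn point, Ocn 3, recurs among most members.

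The comparison of the groups asked whether the capture driver changed any member. No member passed the threshold: 0 of 10 were called at an edgeR adjusted p under 0.05, and 0 had an unadjusted p under 0.05. Of all 234 entries tested, 13.7% were called, and 62 had an unadjusted p under 0.05. The log2 fold changes of Ocn over Prx1 lay between -0.21 (let-7a-5p, SE 0.15, 95% interval -0.51 to 0.09, adjusted p = 0.353) and 0.07 (let-7g-5p, SE 0.10, 95% interval -0.14 to 0.29, adjusted p = 0.705). Their median was -0.05, beside 0.01 over all entries, and 3 of 10 were above 0. let-7f-5p had the value nearest to 0, 0.01 (SE 0.11, 95% interval -0.22 to 0.24, edgeR adjusted p = 0.936). The ends of this range rest in part on single libraries. Without Ocn 3, let-7a-5p was at -0.020 and let-7g-5p at 0.15, and without Ocn 4 let-7a-5p was at -0.30 and let-7f-5p at -0.032. The widest interval, that of let-7e-5p, ran from -0.38 to 0.28, so changes within these bounds were not resolved. DESeq2 and limma voom also called 0 members, with 0 at an unadjusted p under 0.05. Over all 234 entries they called 42 and 48. Upper quartile scaling shifted the median over all entries by 0.12, and with it 9 of 10 members lay above 0 in place of 3, so no direction is given for the family.

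A second fit took the summed count of the 10 members as the library size and so compared the makeup of the family. Again 0 of 10 members were called, and 0 had an unadjusted p under 0.05. On this scale 8.55% of the 234 entries were called, 57 had an unadjusted p under 0.05, and the median of all entries was 0.11. let-7a-5p had the lowest unadjusted p of the family, 0.0510, with a log2 fold change of -0.18 (SE 0.09, 95% interval -0.36 to 0.00, edgeR adjusted p = 0.203). Ocn libraries held 14.5% ± 2.0 of the family as let-7a-5p (SD, n = 6) and Prx1 libraries 16.4% ± 0.5 (SD, n = 10). Without Ocn 3 the Ocn share was 15.3% ± 0.6 (SD, n = 5), and its log2 fold change on this scale was -0.10. let-7g-5p had 0.17 (SE 0.14, adjusted p = 0.478) and let-7j 0.12 (SE 0.14, adjusted p = 0.617). The other 7 members lay between -0.05 and 0.07.

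**Figure D3:**
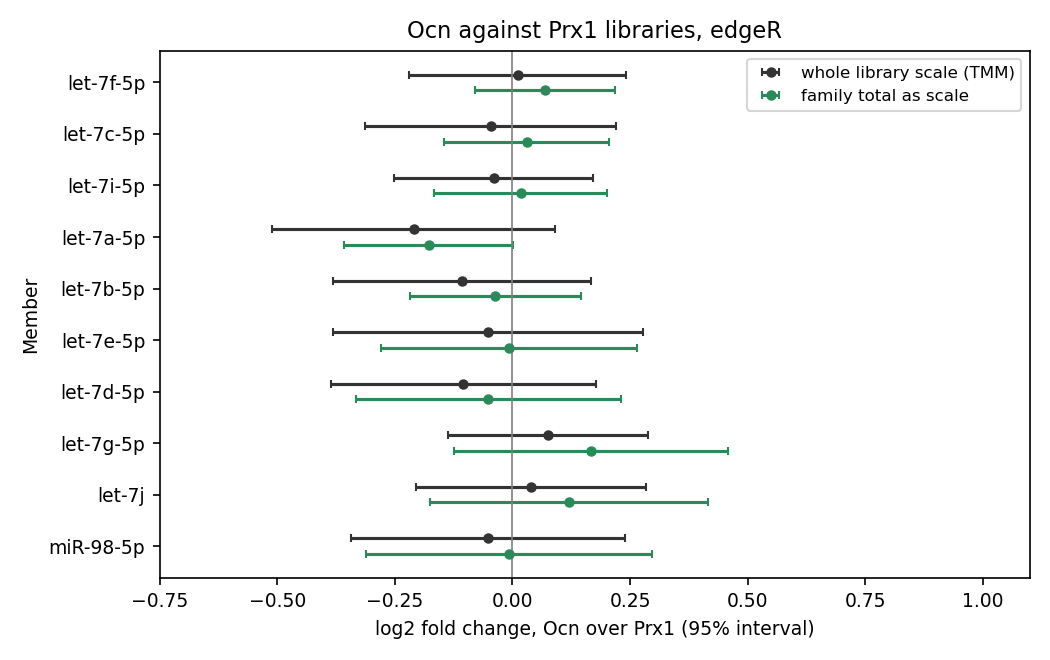
Points give the edgeR log2 fold change of Ocn over Prx1 for each member, with 95% intervals. Black uses the whole library as the scale and green the family total. All intervals on the whole-library scale span 0, and that of let-7a-5p on the family scale, -0.36 to 0.00, only just reaches it.

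Over all 16 libraries let-7i-5p ran from 13.8% to 20.1% and let-7f-5p from 26.9% to 34.1% of the family. Group means were closer together, and a few libraries stood apart in the makeup of the family. let-7f-5p held 31.6% ± 1.6 of it in Ocn and 30.2% ± 2.6 in Prx1, let-7c-5p 20.7% ± 1.8 and 20.2% ± 2.1, let-7i-5p 18.2% ± 1.2 and 17.96% ± 2.11, and let-7b-5p 11.9% ± 0.6 and 12.2% ± 1.3 (SD, n = 6 and 10). The differences of these means were smaller than the SD of Prx1 in each case. That of let-7a-5p was not, at -1.90 percentage points beside a Prx1 SD of 0.46. In Prx1 1, 2 and 3 the let-7f-5p share was 34.1%, 33.8% and 32.8%, above the 26.9% to 30.1% of the other 7 Prx1 libraries, and let-7b-5p was at 11.3%, 10.5% and 10.3%, where the other 7 had 11.2% to 13.8%. These 3 libraries also had the highest let-7d-5p shares, 1.04%, 1.11% and 1.03%. The lymphocyte microRNA miR-150-5p was at 1832, 2346 and 2907 CPM in them and at 1107 to 1958 CPM in the other 7. Its part in the family's makeup was not tested. Prx1 7 had the highest family share of all libraries with the lowest let-7i-5p share, 13.8% against 15.3% to 20.1% elsewhere.

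Ocn 3 differed from the other Ocn libraries in several members at once. let-7a-5p held 10.5% of the family there and 14.6% to 15.99% in the other 5. The ratio of let-7a-5p to let-7c-5p, which differ by A19G alone, was 0.441 in Ocn 3, 0.707 to 0.806 in the other Ocn libraries and 0.708 to 0.939 in Prx1. By contrast the ratio of let-7b-5p to let-7c-5p (G17A) was 0.532 in Ocn 3 and 0.566 to 0.633 in the other 15 libraries. Of the 10 members, 7 were at their lowest CPM of all 16 libraries in Ocn 3, and let-7c-5p, let-7g-5p and let-7j were not. The leukocyte microRNA miR-142a-3p reached 77658 CPM in Ocn 3, against 30437 to 40283 CPM in the other Ocn libraries. Other leukocyte markers stood out less there. The myeloid miR-223-3p was at 9975 CPM, against at most 9485 CPM in the other Ocn and 6976 to 14667 CPM in the Prx1 libraries. The lymphocyte miR-150-5p was at 1176 CPM, against at most 1034 CPM and 1107 to 2907 CPM. In Ocn 3 miR-125a-5p and miR-125b-5p were at 10869 and 16601 CPM. They reached at most 6743 and 11672 CPM in the other Ocn and at most 10901 and 16953 CPM in the Prx1 libraries. Whether these differences share a source with the family's was not tested.

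Covariation was measured as the SD over libraries of the log2 ratio of 2 members, after subtracting group means. A low value says that the pair kept its ratio from mouse to mouse. The median over the 45 pairs was 0.24, beside 0.55 over all pairs of the 234 tested entries and 0.39 over pairs of the 80 entries at least as abundant as miR-98-5p. Without Ocn 3 the medians were 0.23, 0.53 and 0.35. All values are a description, since members share libraries, sequence and a fixed total.

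let-7b-5p and let-7c-5p, whose hairpins are neighbours on chromosome 15, kept the steadiest ratio, with an SD of 0.06. Counting error alone would give about 0.01 if each count were an independent molecule, which is not known. The same condition applies to each counting error given below. let-7d-5p and let-7f-5p, neighbours on chromosome 13, followed with 0.11 over all 16 libraries. let-7a-5p, from the same cluster, was less tightly tied to let-7f-5p (0.18) and let-7d-5p (0.23), and the chromosome X pair of let-7f-5p and miR-98-5p had 0.19. Without Ocn 3, where let-7a-5p was low, these SDs were 0.14, 0.22 and 0.18, so the first rests in part on that library. The pair of let-7d-5p and let-7f-5p stayed at 0.11 without Ocn 3. Pairs with no shared cluster were then as steady: let-7c-5p with let-7e-5p had 0.11. So did let-7d-5p with let-7j in Prx1 alone, and let-7b-5p with let-7i-5p in Ocn alone. The median was 0.18 over the 5 pairs with hairpins in a shared cluster and 0.25 over the other 40. The 5 pairs that are 1 substitution apart and the other 40 gave the same medians, and some pairs are in both groupings. In Ocn alone the medians were 0.20 and 0.22 by cluster, and 0.14 and 0.21 by substitution. In Prx1 both groupings gave 0.15 and 0.26. The parts of hairpin position and of sequence in these values were not tested. The loosest pair was let-7e-5p with let-7j, at 0.39.

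In Prx1, members fell into sets that were chosen after their values were seen. let-7b-5p, let-7c-5p and let-7e-5p kept their ratios with SDs of 0.05 to 0.13, and let-7d-5p, let-7f-5p and let-7j with SDs of 0.11 to 0.14. Pairs across these sets had a median of 0.36. Without Prx1 1, 2 and 3 the median across the sets was 0.18, so the split was smaller without those libraries. In Ocn the median across the sets was 0.18, and the medians within them were 0.20 for the set of let-7b-5p and 0.22 for that of let-7d-5p. Without Ocn 3 these were 0.16, 0.09 and 0.15, so in the other 5 Ocn libraries let-7b-5p, let-7c-5p and let-7e-5p kept their ratios more steadily than pairs across the sets, while the set of let-7d-5p was close to the value across. The difference between Ocn and Prx1 in this respect was not tested. let-7g-5p and miR-98-5p also kept their ratio in Prx1, with an SD of 0.12, beside 0.11 from counting error alone in these libraries.

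**Figure D4:**
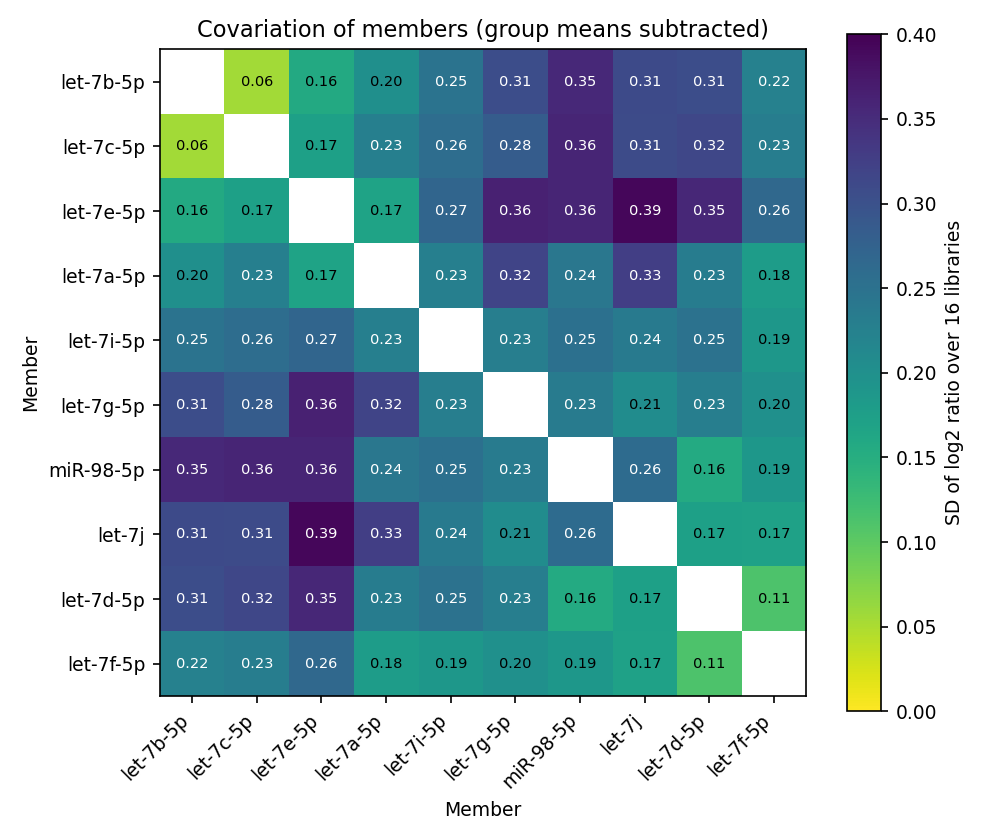
Cells give the SD over 16 libraries of the log2 ratio of 2 members, with group means subtracted, and lighter cells mark steadier ratios. The pair of let-7b-5p and let-7c-5p (0.06) and the pair of let-7d-5p and let-7f-5p (0.11) are lowest, and let-7e-5p with let-7j (0.39) is highest.

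let-7j is nearest in sequence to let-7i-5p, but the steadiness of their ratio differed from Ocn to Prx1. Over its first 22 bases let-7j differs from let-7i-5p by G8U only. Relative to let-7i-5p its count was 1.98% ± 0.19 for the 6 Ocn libraries and 1.87% ± 0.35 for the 10 Prx1 libraries (SD), from 1.37% in Prx1 4 to 2.45% in Prx1 7. In Prx1 the SD of its log2 ratio was 0.28 to let-7i-5p, 0.11 to let-7d-5p and 0.14 to let-7f-5p, where counting error gives 0.06 to 0.07. In Ocn the ratio to let-7i-5p was steadier (0.13) than that to let-7d-5p (0.25), and without Ocn 3 these SDs were 0.06 and 0.15, where counting error gives 0.04 and 0.05. The closer tie to let-7d-5p was thus seen in Prx1 and not in Ocn, a difference between groups that was not tested.

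**Figure D5:**
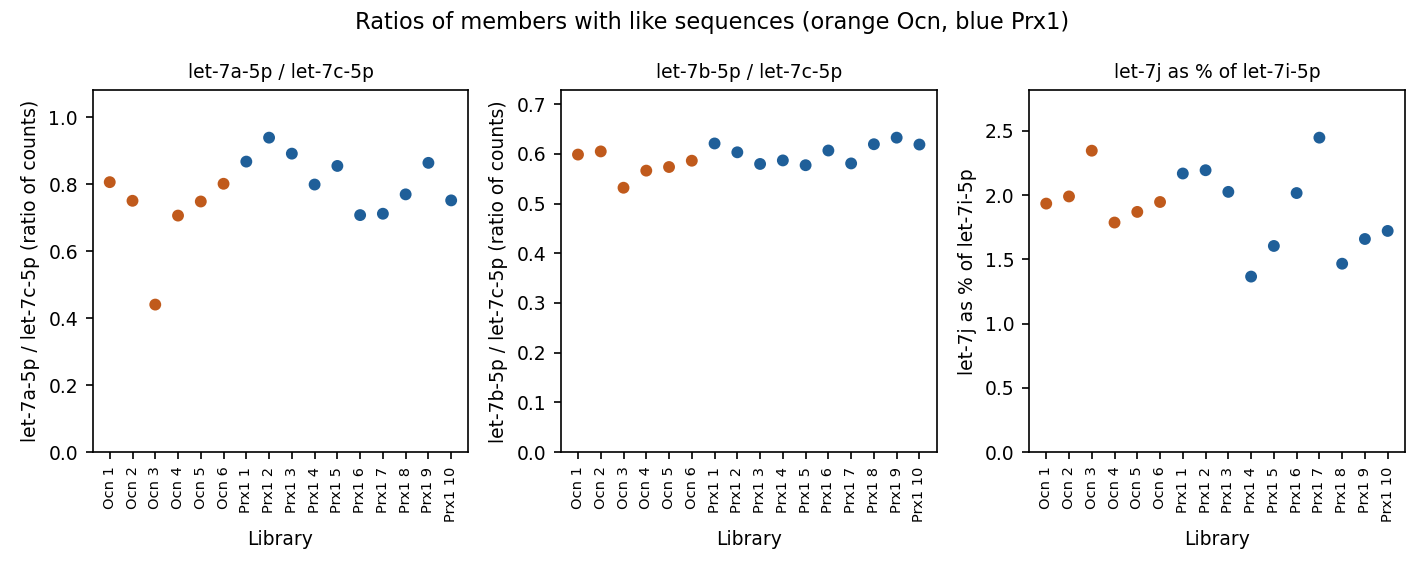
Points give, for each library (orange Ocn, blue Prx1), the count ratio of let-7a-5p to let-7c-5p, that of let-7b-5p to let-7c-5p, and let-7j as a percent of let-7i-5p. Ocn 3 has the lowest ratio of let-7a-5p to let-7c-5p at 0.441, the ratio of let-7b-5p to let-7c-5p stays within 0.532 to 0.633, and let-7j varies from 1.37% to 2.45%.

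The passenger arms of the same hairpins were scarce. Summed over 12 entries, they made up 0.051% ± 0.013 of both arms for the 6 Ocn libraries and 0.050% ± 0.007 for the 10 Prx1 libraries (SD). let-7d-3p, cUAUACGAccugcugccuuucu, (seed in capitals) was the exception, and its sequence is shown because it was the only passenger arm abundant enough to be tested. Its mean was 135 ± 38 CPM in the 6 Ocn libraries and 145 ± 43 CPM in the 10 Prx1 libraries, and it made up 3.93% ± 1.67 and 3.81% ± 0.85 of the let-7d counts, with 7.04% in Ocn 3. The 5p to 3p log2 ratio of let-7d differed between the groups by 0.02 (SE 0.23, 95% interval -0.46 to 0.51, limma adjusted p = 0.919), and this hairpin was not called, where 6.82% of 44 hairpins were. The other 11 passenger arms had between 4 and 128 counts over all 16 libraries. let-7a-1-3p and let-7c-2-3p have the same mature sequence and hold equal counts in all libraries, so they are 1 measurement listed under 2 names.

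No further entry with these seeds added to the family. let-7k, which shares the seed GAGGUAG, had 25 counts in all, spread over 13 libraries. miR-1961 with the same seed, and miR-202-3p with the let-7j seed, had 0 counts among 9663370 in all, which allows a share of up to 3.1e-05%.

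Some let-7 hairpins lie beside members of the miR-99/100 and miR-125 families, which have other seeds. Of these 5 neighbours 1 was called, where 13.7% of all entries were: miR-99a-5p, whose hairpin is 656 bases from Mirlet7c-1, was higher in Ocn, at 1096 ± 120 CPM (SD, n = 6) against 780 ± 178 CPM (SD, n = 10), a log2 fold change of 0.45 (SE 0.14, edgeR adjusted p = 0.0278). The call was lost with the depth covariate (0.43, edgeR adjusted p = 0.319), with thinned counts (0.45, adjusted p = 0.0974), with factors computed without the members (0.42, adjusted p = 0.0515) and without any 1 of Ocn 4, Ocn 6 and Prx1 1, 2, 3, 4, 6 or 7, where it ran from 0.38 to 0.46. The value for let-7c-5p was -0.05 (SE 0.13, edgeR adjusted p = 0.850). The difference between these fold changes was not tested, and let-7c-5p has a second hairpin. miR-99b-5p had -0.26 (SE 0.11, edgeR adjusted p = 0.117), miR-100-5p 0.15, miR-125a-5p 0.26 and miR-125b-5p 0.04, none of them called.

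Markers of red cells, leukocytes, endothelium and muscle were present in all libraries, so let-7 guides of Cre-marked cells and of other cells cannot be told apart in these counts. The 3 red cell microRNAs summed to 11591 to 20691 CPM in Ocn and 15607 to 23278 CPM in Prx1, and the 3 muscle microRNAs to 46680 to 77323 and 39775 to 70705 CPM. miR-126a-3p of endothelium ran from 14957 to 18767 CPM in Ocn and from 11453 to 17391 CPM in Prx1, and the 4 mesenchymal markers, a lineage that Prx1-Cre itself marks, summed to 30860 to 41966 and 26082 to 34341 CPM. Of 15 markers on 8 lists, 14 were tested and 3 were called, each lower in Ocn: miR-150-5p (-1.05), miR-133a-3p (-0.68) and miR-486a-5p (-0.38). Over all 234 entries tested 13.7% were called, 14 of them higher and 18 lower in Ocn. Members of a list did not all point one way. Beside miR-486a-5p, the red cell microRNAs miR-144-3p and miR-451a had 0.58 (edgeR adjusted p = 0.0569) and 0.22, and beside miR-133a-3p of muscle, miR-1a-3p had 0.34 and miR-206-3p -0.29, none of these 4 called. With the depth covariate 0 of the 3 were called, and the call of miR-486a-5p was also lost under 8 other settings, among them upper quartile scaling (-0.26), and without any 1 of 7 libraries: Ocn 2, 4, 5 (-0.24) or 6, or Prx1 8, 9 or 10. miR-122-5p of liver was at 1644 CPM in Prx1 5, at 0 in Prx1 6 and 7 and at no more than 23.5 CPM elsewhere. The part of these markers in the family's levels was not tested.

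Among the 224 other tested entries, Spearman's rho to the summed family level over 16 libraries, with group means subtracted, had a median of -0.16. The highest values were those of miR-5128 (0.67), miR-669c-5p (0.59), miR-132-3p (0.55), miR-382-5p (0.53) and miR-3473e (0.51), all at 60.8 CPM or less on average. The lowest were those of miR-30e-5p (-0.92), miR-142a-5p (-0.86) and miR-29c-3p (-0.86), which had mean levels of 2845, 3765 and 1277 CPM. These values describe shares of one total, in which the family takes a large part.

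Total counts ran from 582660 to 1536421 in Ocn and from 225273 to 813770 in Prx1. Each member had at least 124 counts in every library. Depth differed with the group, so the relation of the family share to log10 of the total was computed within each. In Ocn, Pearson's r was 0.30 (exact permutation p = 0.628) and Spearman's rho 0.14 (exact permutation p = 0.803, n = 6), and without the 2 libraries farthest from the median total r was -0.14. In Prx1, r was -0.25 (permutation p = 0.491) and rho -0.36 (permutation p = 0.312, n = 10), with r = -0.24 without the 2 farthest. The adjusted p was 0.803 for all 4 values.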

How the data were processed

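The members, marker lists and tests were chosen with earlier results of these data known. Per the labels' protocols, RNA was isolated with a column kit and 1 ng of total RNA went into QIAseq miRNA libraries. The deposited table holds raw counts per mature microRNA, not normalized by the authors. Per the submitters' processing notes, cutadapt 1.18 and build mm10 were used. The counting tool, the treatment of mismatches and whether unique molecular identifiers were counted are unknown (not given in the sources used here). The limit for a count of 0 (3 counts) thus covers counting error only, while the intervals of fold changes come from the fits and hold the spread between libraries.

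How reads that match several hairpins were counted is also not given. miR-199a-3p and miR-199b-3p, identical in sequence with 2 and 1 hairpins, had count ratios of 2.00 to 2.01 in all 16 libraries. Among counts of 1 to 19, 33.9% were even for entries with 2 hairpins and 39.2% for those with 1. What these values mean for the ranks and shares of let-7a-5p, let-7c-5p and let-7f-5p, which have 2 hairpins each, was not tested.

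CPM and shares use the column total of all entries. Groups were compared in edgeR 4.0.16 (R 4.3.3) by quasi-likelihood, with TMM factors, a robust fit and filterByExpr by group (which kept 234 entries and all 10 members), with Benjamini-Hochberg adjustment over these and a threshold of 0.05. The family fit used the summed member counts as the library size with no factors. The standard error was the size of the log2 fold change over the square root of F. Arm ratios used limma 3.58.1 on log2((5p + 0.5)/(3p + 0.5)). Alternatives used DESeq2 1.42.0, limma voom, other scalings and filters, thinned counts, a depth covariate, a block on the replicate number and each library left out. Family shares, member shares and ratio SDs (log2(CPM + 1)) had no test. Permutation tests of the depth relation were 2-sided (exact in Ocn, 100000 resamples in Prx1, scipy 1.17.1). The whole-library edgeR fit was also run on simulated counts, with entries drawn independently. Such counts do not copy shifts that many entries share within a library, and the outcome is not given here. The most alike of 60 same-group library pairs, Prx1 2 and 3, differed by a chi-square per degree of freedom of 5.04. If counts are independent molecules, which is not known, no pair thus differed by counting error alone.

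Named are the 10 members, the 3p arms of their hairpins, entries sharing a seed, the 5 cluster neighbours, the markers, and the 5 entries with the highest and 3 with the lowest rho to the family. Sequences and hairpin positions are from RefSeq tables (GRCm38.p6), in which all 10 members and 12 passenger arms matched.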

Additional observations from a re-analysis of the deposited data

Results flagged for a closer look

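In each group, a library was marked where its gap to the nearest other library, divided by the range of the group, exceeded Dixon's 95% critical value. Of 96 group tests 15 were marked, and a single test marks about 1 in 20 by chance. The tests share libraries and counts, so the number marked cannot be set against that rate. Of the 15, 9 were in Ocn 3.

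In Ocn 3, let-7a-5p was lowest of its group at 32050 CPM (other Ocn libraries 57931 to 72761 CPM) and at 10.5% of the family. Its log2 ratio to let-7c-5p was -1.18 there, against -0.50 to -0.31. The log2 ratio of let-7d-5p to let-7g-5p was -0.59 in Ocn 3, against -0.11 to 0.15. let-7j was 2.34% of let-7i-5p there, against 1.79% to 1.99%, and let-7d-3p was 7.04% of both let-7d arms, against 2.41% to 4.15%. Outside the family, Ocn 3 had the highest Ocn values of miR-125a-5p (10869 CPM), miR-125b-5p (16601 CPM) and miR-142a-3p (77658 CPM).

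In Prx1 4, let-7a-5p was highest of its group at 17.5% of the family, and let-7j was lowest at 0.868% of let-7f-5p, against 1.04% to 1.22%. let-7d-3p was highest in Prx1 7 at 252 CPM, against 111 to 167 CPM. miR-100-5p was highest in Prx1 10 at 508 CPM and miR-122-5p in Prx1 5 at 1644 CPM. miR-16-5p, the most abundant entry, was highest in Ocn 2 at 167189 CPM.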

How the results depend on the processing

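No setting called a member on either scale: 0 of 10 in each of 28 alternatives on the whole-library scale and 22 on the family scale, with a lowest adjusted p of 0.184 (let-7g-5p, edgeR with upper quartile factors) and 0.149 (let-7a-5p, edgeR without Ocn 1). Since most log2 fold changes are near 0, 43 of 280 and 23 of 220 changed sign. On the whole-library scale upper quartile factors gave let-7b-5p 0.010, let-7c-5p 0.069, let-7d-5p 0.038, let-7e-5p 0.067, let-7i-5p 0.089 and miR-98-5p 0.097, and factors without the members gave let-7f-5p -0.019. No low-count filter gave let-7c-5p 0.029, let-7e-5p 0.023, let-7i-5p 0.034 and miR-98-5p 0.025. voom gave let-7c-5p 0.019, let-7d-5p 0.0040, let-7e-5p 0.015 and miR-98-5p 0.057. Thinning gave let-7j -0.013 and the depth covariate let-7c-5p 0.011. With Prx1 libraries 1 to 6 alone, let-7b-5p was 0.019, let-7c-5p 0.066, let-7e-5p 0.052 and let-7i-5p 0.012.

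The replicate block over numbers 1 to 6 gave let-7b-5p 0.022, let-7c-5p 0.070 and let-7e-5p 0.033, and on the family scale let-7b-5p 0.036 and let-7e-5p 0.047, with 0 members called. Same-numbered libraries correlated in their deviations at 0.02 to 0.22, and 0 of 6 correlated best with its own number. For number 4 its own value, 0.2199, was nearly the best, 0.2204. What the numbers stand for is not given, and these few values cannot decide whether same-numbered libraries are paired. The block moved the let-7d arm difference to -0.0063. On the family scale the column total gave let-7c-5p -0.023 and let-7i-5p -0.017, thinning let-7e-5p 0.018 and the depth covariate let-7i-5p -0.11. The cause of these changes was not tested.

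With each library left out, the whole-library log2 fold changes ran from -0.30 to -0.020 for let-7a-5p, -0.20 to 0.013 for let-7b-5p, -0.15 to 0.056 for let-7c-5p, -0.14 to 0.058 for let-7d-5p, -0.17 to 0.11 for let-7e-5p, -0.032 to 0.16 for let-7f-5p, 0.041 to 0.15 for let-7g-5p, -0.11 to 0.093 for let-7i-5p and -0.098 to 0.13 for miR-98-5p. On the family scale they ran from -0.014 to 0.052 for let-7c-5p, -0.047 to 0.039 for let-7e-5p, -0.019 to 0.036 for let-7i-5p and -0.080 to 0.059 for miR-98-5p. The let-7d arm difference ran from -0.10 to 0.22, and the difference in family share from -2.23 to 1.00 percentage points, positive without Ocn 3.

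Calls over all entries, 32 on the whole-library scale, ran from 0 to 48 over the 12 settings that leave out no single library, with 48 under voom, 42 under DESeq2, 11 of 192 tested after thinning and 0 with the depth covariate. On the family scale they rose from 20 to 30 with the column total and fell to 13 with the stricter CPM filter, 6 after thinning, 0 with the covariate and 10 to 27 without single libraries. Called hairpins numbered 1 with a minimum count over both arms in every library or with thinning, and 5 with the block. The alternatives for miR-99a-5p and the called markers, and the covariation and left-out library settings for member shares, were added after the data were seen.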
